A study of Mus musculus with 12 samples.

Results

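The 9 genes described here encode potassium channels that set or adjust the resting potential of heart cells: the inward rectifiers Kcnj2, Kcnj12, Kcnj3 and Kcnj5, the ATP-sensitive (KATP) channel pores Kcnj11 and Kcnj8 with their sulfonylurea receptor subunits Abcc9 and Abcc8, and the leak channel Kcnk3. They were chosen by symbol, and all 9 were present among the 16673 genes shared by the 2 deposited count tables. RNA came from the left ventricle of male mice in 4 groups of 3 libraries. The constitutive knockout (mCKO, DDX5fl/fl MYH6Cre+) and its control (CTR1, Ddx5flox/flox) were untreated and taken at 8 weeks of age. The inducible knockout (iCKO, Ddx5flox/flox Myh6MerCreMer) and its control (CTR2, Ddx5flox/flox) both received tamoxifen into the abdomen at 20 mg/kg/day on 5 days in a row. Collection of the iCKO and CTR2 hearts came after 7 days of tamoxifen according to the design text, which calls the controls age-matched without giving an age. Floxed Ddx5 alleles, present in all 4 groups, are removed where Cre is active, and the Myh6 promoter drives Cre in cardiomyocytes, so that the other cells of the ventricle keep the gene. No control carried Cre, so that an effect of Cre itself, or of MerCreMer activated by tamoxifen, and the loss of Ddx5 cannot be told apart.

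Inward rectifier channels pass potassium more easily into the cell than out of it. Kir2.1 (Kcnj2) and Kir2.2 (Kcnj12) carry the current that holds the ventricular resting potential and ends the action potential. Kir3.1 (Kcnj3) and Kir3.4 (Kcnj5) assemble with each other into the channel that acetylcholine and adenosine open through G protein beta-gamma subunits, best known from atrial and nodal cells. KATP channels join pore subunits, Kir6.2 (Kcnj11) or Kir6.1 (Kcnj8), to sulfonylurea receptors, SUR2 (Abcc9) or SUR1 (Abcc8), and open when the ratio of ATP to ADP falls. The ventricular muscle channel is known as a Kir6.2 and SUR2 complex, whereas Kir6.1 is known from vascular smooth muscle and pericytes. TASK-1 (Kcnk3) is a two-pore channel that passes a background potassium current.

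Each library held between 19682268 and 25871882 gene counts. Levels are given as CPM, counts scaled to a common library size with TMM factors. Whether replicates came from separate mice is not in the labels, and p-values here measure only how far these libraries spread, which may be technical. Ddx5, the targeted gene, lay below its control in every knockout library. It was at 40.9% of control in mCKO (log2 fold change -1.29 ± 0.20 SE, adjusted p = 0.17 by edgeR, and -1.26 ± 0.12, adjusted p = 0.0019 when the replicate number entered the fit as a block). In iCKO it was at 33.7% (-1.57 ± 0.15, adjusted p = 1.7e-04). Replicate 3 of CTR1 and of mCKO stood apart from replicates 1 and 2 of both groups. The calls among the 9 channel genes in that experiment are therefore also given without both of these libraries. For most other genes they are not. In iCKO, replicate 3 also stood apart for the channel genes: all 9 were lowest there, and 8 of 9 were highest in replicate 1. Atrial markers summed to 20.7 to 60.2 CPM over the 12 libraries and ventricular markers to 6786 to 15803 CPM, the tissue that the labels name.

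All 9 genes are protein coding, and in GRCm38 they form 2 neighbouring pairs and 5 single loci. On chromosome 6, Kcnj8 (142564837 to 142571614, minus strand) lies 16247 bases from Abcc9 (142587862 to 142702766, minus strand). On chromosome 7, Kcnj11 (46097123 to 46100952, minus strand) lies 3570 bases from Abcc8 (46104523 to 46180039, minus strand). No protein-coding gene is annotated between the members of either pair. The pore gene of the ventricular muscle channel thus sits beside Abcc8, and its receptor gene beside Kcnj8. Chromosome 11 carries Kcnj2 (111066164 to 111076825) and Kcnj12 (61022564 to 61073269), both on the plus strand. Kcnj3 lies on chromosome 2 (55411798 to 55598145, plus strand), Kcnj5 on chromosome 9 (32314706 to 32344380, minus strand) and Kcnk3 on chromosome 5 (30588170 to 30625270, plus strand). An antisense RNA, Gm26794, overlaps 31.1% of the merged exon bases of Kcnj3, and opposite-strand genes overlap 5.76% of Kcnk3 (Gm9899) and 1.89% of Abcc9 (5330439B14Rik). Whether the counting used the strand is not given in the sources used here, so reads of these overlaps cannot be assigned to one gene with certainty.

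In the controls, the leak channel and the muscle KATP channel led the group. Per kilobase of merged exons (CPM per kb), Kcnk3 stood at 117 ± 3.87 in CTR1 and 119 ± 2.67 in CTR2 (SD, n = 3), above every other member in every library. Abcc9 followed with 77.6 ± 18.4 and 81.1 ± 4.17 CPM per kb, and Kcnj11 with 65.4 ± 13.7 and 78.4 ± 2.98. The ranges of Abcc9 and Kcnj11 overlapped in both control groups, and both lay above all other channel genes but Kcnk3. A middle group held Kcnj5 (34.7 ± 4.83 in CTR1, 28.9 ± 5.28 in CTR2), Kcnj12 (23.2 ± 4.23 and 30.1 ± 1.15) and Kcnj3 (17.6 ± 1.85 and 24.1 ± 2.17). Neighbours in this middle group overlapped in CTR2. Kcnj2 (9.92 ± 0.87 and 12.5 ± 1.19 CPM per kb) and Abcc8 (9.23 ± 3.25 and 8.94 ± 0.97) were lowest. Kcnj8 changed place between the control groups, at 31.8 ± 3.85 CPM per kb in CTR1, overlapping Kcnj5, and 12.8 ± 0.64 in CTR2, overlapping Kcnj2.

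The order in mCKO was close to that of CTR1, with Kcnk3 first at 88.6 ± 2.30 CPM per kb in every library, then Abcc9 (59.1 ± 14.5) and Kcnj11 (57.9 ± 13.1). In iCKO, Kcnj5 came first on average at 37.3 ± 9.82 CPM per kb, its range of 30.9 to 48.6 overlapping that of Kcnk3 (25.8 to 45.5). Kcnj11 (21.1 ± 5.26) and Abcc9 (19.7 ± 11.7) followed, then Kcnj12 (13.5 ± 3.2) and Kcnj8 (9.97 ± 1.07), each overlapping the next. Kcnj2 (4.50 ± 3.23), Kcnj3 (3.67 ± 1.98) and Abcc8 (3.0 ± 1.19) formed the lowest group, below Kcnj8 in every iCKO library. The rank order is a description, and the changes behind it are tested gene by gene below.

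**Figure D1:**
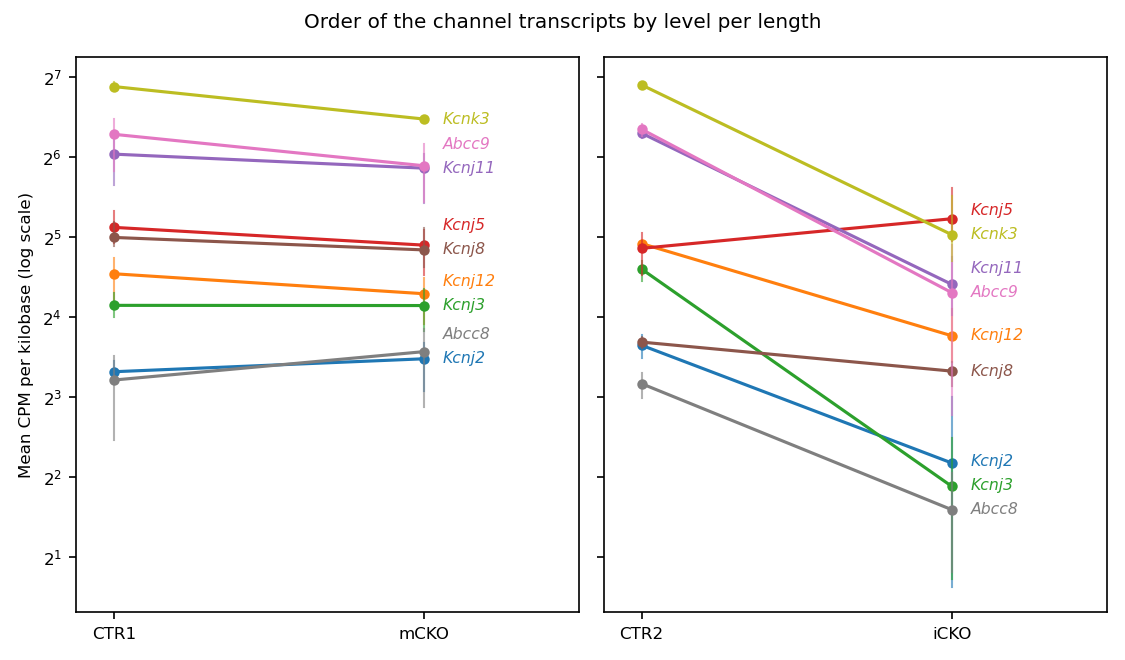
Mean level of each channel gene per kilobase of merged exons (log scale), control on the left and knockout on the right of each panel, with thin vertical lines from the lowest to the highest of 3 libraries. The lines of CTR1 and mCKO run nearly level, while in iCKO Kcnj5 at 37.3 CPM per kb stands above Kcnk3 at 32.5 on average and 7 genes drop steeply.

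Induced deletion went with lower levels of most of these channels. In iCKO against CTR2, 7 of the 9 genes fell, where 44.8% of all 13548 genes tested were called, 19.5% lower and 25.2% higher. The genes that fell were Kcnj3, Abcc9, Kcnj11, Kcnk3, Abcc8, Kcnj2 and Kcnj12, with levels between 15.2% (Kcnj3) and 45.0% (Kcnj12) of control. None rose, and Kcnj5 and Kcnj8 did not pass the test. The median log2 fold change was -1.58 over the 9 genes and 0.03 over all genes tested. The 2 groups did not overlap for 8 of the 9 genes, all lower in iCKO, which 27.0% of all genes also showed, while 31.9% were higher without overlap (58.9% in either direction). With iCKO replicate 3 left out, 8 genes fell, Kcnj8 in addition, beside 24.1% of all genes lower and 25.7% higher. In bulk tissue, fewer cells of a type and less RNA per cell cannot be told apart.

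Both Kir2 genes fell. Kcnj2 was measured at 68.7, 73.9 and 61.0 CPM in CTR2 and at 43.2, 21.9 and 8.35 CPM in iCKO (replicates 1, 2 and 3). The iCKO libraries lay below all controls but were spread over a wide range, with replicate 1 nearest to control. The change was -1.47 ± 0.47 (adjusted p = 0.034), 36.0% of control. Its call rested on few libraries: without iCKO replicate 2, or without any 1 of the 3 CTR2 replicates, the adjusted p lay between 0.063 and 0.099, whereas without iCKO replicate 1 the change was -2.17 and without replicate 3 it was -1.10, both called. Scaling to library sizes alone also ended it (-1.25, adjusted p = 0.064). Kcnj12 was tighter, with 84.4, 84.8 and 79.2 CPM in CTR2 against 46.8, 35.3 and 29.6 CPM in iCKO. It fell by 1.15 ± 0.18 on the log2 scale (adjusted p = 0.0015), the smallest change among the 7, and stayed called in all 14 alternatives.

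The 2 partners of the G protein-gated channel parted. Kcnj3 had the lowest fold of the group, from 135, 113 and 129 CPM in CTR2 to 29.2, 19.7 and 8.57 CPM in iCKO. Every iCKO library was far below every control, and the log2 fold change was -2.72 ± 0.38 (adjusted p = 8.7e-04), 15.2% of control. Kcnj5 was measured at 155, 108 and 143 CPM in CTR2 and at 228, 152 and 145 CPM in iCKO. The groups overlapped, replicate 1 being the highest library of each, and the difference of 0.37 ± 0.22 did not pass the test (adjusted p = 0.20, 95% interval -0.14 to 0.88). The interval includes no change and a rise, but no fall of the size seen for Kcnj3. These subunits form one channel, and scaling cancels in their ratio within a library. The log2 ratio of Kcnj5 to Kcnj3 counts was 0.20, -0.07 and 0.15 in CTR2 and 2.96, 2.95 and 4.06 in iCKO. It rose by 3.23, from 1.19-fold to 11.2-fold per kilobase, with no overlap of groups (two-sided exact permutation p = 0.1, the smallest that 3 against 3 allows, and 0.16 adjusted over 8 ratio tests). In mCKO the same ratio differed from CTR1 by -0.22 (exact permutation p = 0.2, adjusted 0.27), with overlapping groups.

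The promoters of Kcnj3 and Kcnj5 are shown because these genes make 1 channel yet moved apart in iCKO. They lie upstream of the RefSeq transcription start (GRCm38.p6) and read 5′ to 3′ on the gene's own strand. That of Kcnj3 ends at the base before the start (chr2:55435720-55435969, plus strand, 250 bases), and that of Kcnj5 stops short of it (chr9:32344381-32344594, minus strand, 214 bases). Capitals mark a GC box, GGGCGG on either strand.
Kcnj3: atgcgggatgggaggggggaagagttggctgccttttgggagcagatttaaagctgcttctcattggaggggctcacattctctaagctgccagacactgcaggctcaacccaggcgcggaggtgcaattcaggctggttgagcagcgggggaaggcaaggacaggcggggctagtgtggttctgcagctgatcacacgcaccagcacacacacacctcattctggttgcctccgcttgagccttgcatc
Kcnj5: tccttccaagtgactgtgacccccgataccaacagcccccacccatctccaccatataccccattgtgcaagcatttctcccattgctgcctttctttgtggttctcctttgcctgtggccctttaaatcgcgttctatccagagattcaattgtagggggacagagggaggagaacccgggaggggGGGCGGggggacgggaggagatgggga
Of 9 genes, 6 had a promoter entry (Kcnj2, Kcnj3, Kcnj5, Kcnj8, Kcnj12 and Abcc9), and the 250 bases before the start were searched on both strands for 5 short motifs. A TATA box was read as TATAAA, which 12.4% of all 32851 promoter windows of that length held. The GC box was found in 32.7% of all windows. An MCAT element, read as CATTCC, was found in 12.6%, a MEF2-type site, read as CTANNNNTAG, in 3.2% and a GATA site, read as AGATAA, in 9.99%. Each motif was counted on its own, without regard to overlap with another. The Kcnj3 window held none of the 5. The Kcnj5 window held 2 GC boxes, of which 1 lies in the stretch shown and the other in the bases next to the start (from 32344345), which lie inside the annotated span of the gene and are not printed. Kcnj2 also held 2 GC boxes, Abcc9 held 1 GC box and 1 MCAT element, and Kcnj8 and Kcnj12 held none. The starts used for Kcnj3, Kcnj5, Kcnj12 and Abcc9 lie inside the RefSeq spans of these genes given above, so that any other starts were not searched. The whole windows of Kcnj12 (61065554 to 61065803) and Abcc9 (142702275 to 142702524) lie inside the spans too, as does that of Kcnj3. Of the Abcc9 window, 41 bases are in GENCODE exons of the gene. These matches describe letters in a window and say nothing about binding.

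The KATP subunits of the muscle channel fell together. Kcnj11, the Kir6.2 pore, went from 293, 276 and 296 CPM in CTR2 to 98.1, 75.4 and 59.6 CPM in iCKO. Its regulatory receptor Abcc9 went from 713, 643 and 681 CPM to 248, 189 and 57.1 CPM. No iCKO library reached a control in either gene, and iCKO replicate 3 was lowest in both. The log2 fold changes were -1.89 ± 0.20 for Kcnj11 (adjusted p = 2.5e-04) and -2.04 ± 0.45 for Abcc9 (adjusted p = 0.0067). Abcc8, the SUR1 receptor of beta cells and mouse atrium, was at 79.1, 63.7 and 74.2 CPM in CTR2 and at 33.4, 25.3 and 14.2 CPM in iCKO. It fell as well, by 1.58 ± 0.28 on the log2 scale (adjusted p = 0.0027), with all iCKO libraries below all controls. These 3 calls held in all 14 alternatives.

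Kcnj8, the Kir6.1 pore of vascular cells, moved least among the genes with lower values. Its levels were 30.9, 34.1 and 32.9 CPM in CTR2 and 26.4, 27.4 and 22.3 CPM in iCKO. The groups did not overlap, but the gap was small, and the difference of -0.36 ± 0.14 missed the threshold (adjusted p = 0.071, 95% interval -0.69 to -0.03). It was called lower without iCKO replicate 3 (-0.32, adjusted p = 0.045), with RLE size factors (0.047), in DESeq2 (0.028) and in 1 fit of all 12 libraries (0.038), and the adjusted p over its 14 alternatives ranged from 0.028 to 0.46. The log2 ratio of Kcnj11 to Kcnj8 was 3.24, 3.01 and 3.16 in CTR2 and 1.89, 1.45 and 1.41 in iCKO, with no overlap. Per kilobase, Kcnj11 transcript was 6.10-fold that of Kcnj8 in CTR2 and 2.08-fold in iCKO (difference in log2 ratio -1.55, exact permutation p = 0.1, adjusted 0.16). The pericyte list, markers of a cell type known for Kcnj8, summed to 843 to 920 CPM in CTR2 and 507 to 741 CPM in iCKO. Of its 8 members 2 rose (Cspg4 1.93, Mcam 1.25) and 2 fell (Rgs5 -1.33, Vtn -1.29), shares near the 25.2% of all genes higher and 19.5% lower. The part of pericyte number in the Kcnj8 values was not tested.

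Kcnk3, the most abundant channel gene per length in the controls, also fell. It was measured at 461, 477 and 481 CPM in CTR2, a narrow range, and at 181, 104 and 103 CPM in iCKO. Replicate 1 of iCKO was again nearest to control without reaching it. The change was -1.87 ± 0.24 (adjusted p = 5.3e-04), 27.3% of control, and it was called in all 14 alternatives. The summed level of the 9 genes was 1957 ± 75.5 CPM in CTR2 and 677 ± 245 CPM in iCKO (SD, n = 3).

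**Figure D2:**
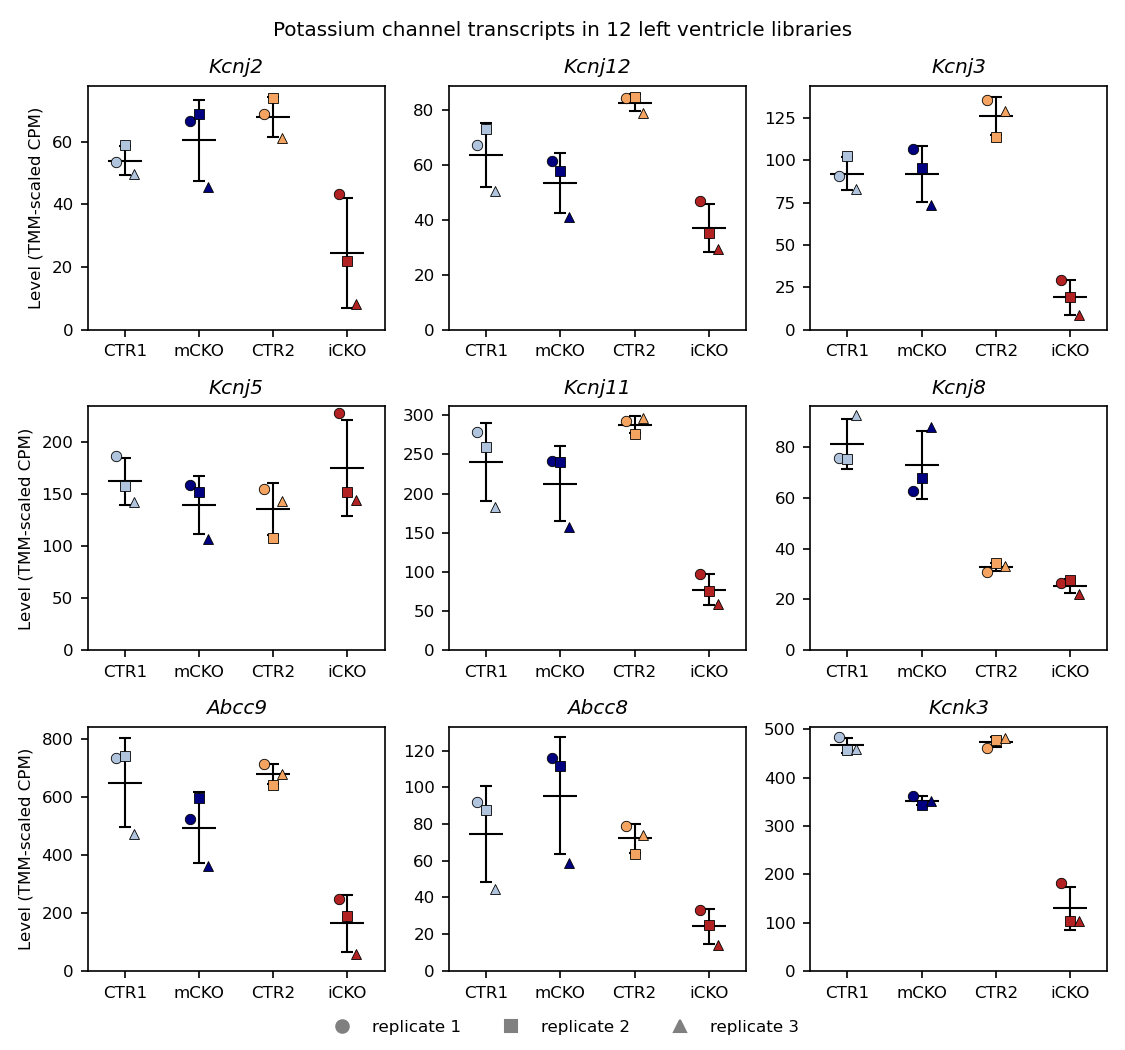
Level of each channel gene in TMM-scaled CPM (vertical axis from 0) in the 12 libraries, 3 per group, with symbols for the replicate number and bars for mean ± SD. In iCKO 7 genes sit well below CTR2, Kcnj5 overlaps its control, and replicate 3 of CTR1 and mCKO is often the lowest of its group.

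Constitutive deletion went with small differences. In mCKO against CTR1 the edgeR test without a block called 0 of the 9 genes and 0% of all 13353 genes, although 1164 genes, Kcnk3 as the only channel gene among them, had an unadjusted p under 0.05. DESeq2 called 310 genes (2.32%) with 1 member, Kcnk3, and limma-voom called 0. Same-numbered libraries deviated together in this experiment (correlations of 0.46, 0.53 and 0.82 for replicates 1, 2 and 3). Replicates 1 and 2 did so as strongly across numbers (0.55 and 0.53), so that only number 3 was set apart. The block by replicate number called 1839 genes (13.8%, with 7.32% higher and 6.45% lower). With the block, Kcnk3, Abcc9 and Kcnj12 fell and Abcc8 rose, while Kcnj2, Kcnj3, Kcnj5, Kcnj8 and Kcnj11 were not called. The median over the 9 genes was -0.18 with and without the block, and 0.00 with the block and 0.01 without it over all genes. Without both replicate 3 libraries and with no block, Kcnk3 and Abcc9 were lower and Abcc8 higher, beside 3.94% of genes lower and 3.85% higher.

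Kcnk3 was the only one of the 9 genes whose groups did not overlap, which 15.0% of all genes showed (7.69% higher and 7.30% lower). It stood at 484, 457 and 459 CPM in CTR1 and at 362, 344 and 350 CPM in mCKO. Unlike most channel genes, it was not set apart in replicate 3. The change was -0.41 ± 0.10 (adjusted p = 0.28) without the block and -0.41 ± 0.06 (adjusted p = 0.0019) with it, 75.4% of control, and over 15 alternatives the adjusted p ran from 7.0e-05 to 0.95.

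The 2 sulfonylurea receptor genes moved in opposite directions in mCKO. Abcc9 was measured at 735, 743 and 472 CPM in CTR1 and at 526, 598 and 361 CPM in mCKO. Abcc8 was measured at 91.8, 87.8 and 44.4 CPM in CTR1 and at 116, 112 and 59.0 CPM in mCKO. In both genes replicate 3 was far below the others in each group, and the groups overlapped, yet each mCKO library lay on the same side of the control with its number. With the block Abcc9 fell (-0.39 ± 0.06, adjusted p = 0.0029) and Abcc8 rose (0.36 ± 0.06, adjusted p = 0.0037). Without the block the values were -0.39 ± 0.25 (adjusted p = 0.79) and 0.36 ± 0.36 (adjusted p = 0.92). On leaving out 1 library without the block, Abcc9 ranged from -0.58 to -0.21 and Abcc8 from 0.09 to 0.61, the ends of both ranges being the fits without replicate 3 of CTR1 or of mCKO. Over 15 alternatives the adjusted p ran from 0.0029 to 1.0 for Abcc9 and from 0.0015 to 1.0 for Abcc8. The log2 ratio of Abcc9 to Abcc8, in which the shared shift of replicate 3 partly cancels, was 3.0, 3.08 and 3.41 in CTR1 and 2.18, 2.42 and 2.61 in mCKO. It was lower by 0.76 with no overlap (exact permutation p = 0.1, adjusted 0.16), or 8.65-fold against 5.12-fold per kilobase. In iCKO the ratio was also lower than in CTR2, by 0.63 with no overlap (2.89, 2.90 and 2.0 against 3.17, 3.33 and 3.2, exact permutation p = 0.1, adjusted 0.16), there with both genes falling. Without iCKO replicate 3 that difference was 0.34, still lower.

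Kcnj12 was at 67.3, 73.2 and 50.8 CPM in CTR1 and at 61.6, 58.0 and 41.2 CPM in mCKO, overlapping groups in which each mCKO library lay below the control of its number. The block called it lower (-0.25 ± 0.07, adjusted p = 0.032), the fit without block did not (-0.25 ± 0.20, adjusted p = 0.88), and over 15 alternatives the adjusted p ran from 0.032 to 1.0. Without the block its value was -0.09 without mCKO replicate 3 and -0.39 without CTR1 replicate 3. It was not called without both replicate 3 libraries or with library sizes alone and the block. Its companion Kcnj2 was at 53.4, 59.0 and 49.6 CPM in CTR1 and at 66.7, 69.0 and 45.6 CPM in mCKO, higher in 2 of 3 numbers, and was not called (0.14 ± 0.09, adjusted p = 0.31 with the block). The log2 ratio of Kcnj2 to Kcnj12 was -0.33, -0.31 and -0.03 in CTR1 and 0.11, 0.25 and 0.14 in mCKO. It was higher by 0.40 without overlap (exact permutation p = 0.1, adjusted 0.16), while in iCKO it differed by -0.58 with overlapping groups (exact permutation p = 0.4, adjusted 0.46). Without iCKO replicate 3 the iCKO difference shrank to -0.11.

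The other genes of the group did not pass the test in mCKO. Kcnj3 differed by 0.00 ± 0.16 (95% interval -0.39 to 0.38) and its mean of 91.8 ± 16.6 CPM in mCKO was 99.8% of the 91.9 ± 9.66 CPM in CTR1. Kcnj11 was at 278, 260 and 183 CPM in CTR1 and 241, 240 and 157 CPM in mCKO, lower in each of 3 numbers (-0.18 ± 0.06, adjusted p = 0.084 with the block). Kcnj5 (-0.23 ± 0.07, adjusted p = 0.059) and Kcnj8 (-0.16 ± 0.07, adjusted p = 0.13) also missed the threshold with the block. The Kcnj11 to Kcnj8 log2 ratio differed by -0.02 (exact permutation p = 1, 2.03-fold in CTR1 and 2.01-fold in mCKO per kilobase), its sign depending on which library was left out. Kcnj8 was the only 1 of the 9 genes that was highest in replicate 3 of both CTR1 (92.2 CPM) and mCKO (87.7 CPM). All 8 pericyte markers were also highest in replicate 3 of CTR1, and 6 of 8 in that of mCKO. Other cell types shared this: all 6 smooth muscle, 7 endothelial and 7 fibroblast markers were highest in replicate 3 of both groups. Of 7 macrophage markers, 6 were highest there in CTR1 and 7 in mCKO, and of 5 blood markers 5 in CTR1 and 0 in mCKO. Of the 10 cardiomyocyte markers, 7 were lowest in replicate 3 of each group, while Mb, Tnni3 and Ckm were highest there, as was the ventricular marker sum (15803 CPM in CTR1 and 13235 CPM in mCKO). The part of these markers in the Kcnj8 values was not tested.

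**Figure D3:**
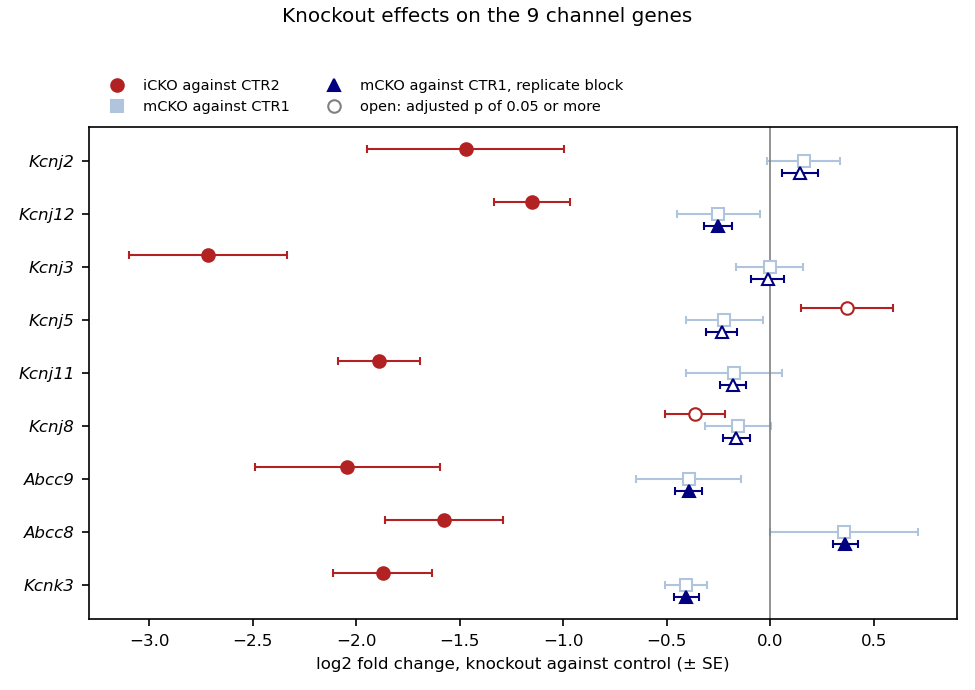
log2 fold change ± SE of each channel gene in iCKO against CTR2 (circles) and in mCKO against CTR1 without (squares) and with the replicate block (triangles). Filled symbols have an adjusted p under 0.05, and the iCKO values reach -2.72 (Kcnj3) while all mCKO values lie between -0.41 and 0.36.

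The difference between models was tested gene by gene as the mCKO effect minus the iCKO effect in 1 fit of all 12 libraries. It was called for 6 of 9 genes, all with the lower fold in iCKO, where 11.0% of 13871 genes were called in that direction and 9.88% in the other (20.8% in all). The genes were Kcnj3 (2.76 ± 0.44, adjusted p = 0.0015), Abcc8 (1.98 ± 0.48, adjusted p = 0.014), Kcnj11 (1.76 ± 0.31, adjusted p = 0.0025), Abcc9 (1.70 ± 0.55, adjusted p = 0.048), Kcnk3 (1.51 ± 0.26, adjusted p = 0.0023) and Kcnj12 (0.94 ± 0.28, adjusted p = 0.030). The calls of Kcnj3, Kcnj11 and Kcnk3 held in all 20 alternatives, and that of Abcc8 in 19, the exception being the fit without replicate 3 of both CTR2 and iCKO (1.70, adjusted p = 0.0502). Abcc9 and Kcnj12 were each lost on leaving out 9 of the 12 libraries, with an adjusted p of up to 0.13 and 0.098. The Abcc9 call was also lost with RLE size factors (adjusted p = 0.051), library sizes only (0.081) and no filter on low counts (0.054), and that of Kcnj12 with library sizes only (0.068) and without replicate 3 of both CTR2 and iCKO (0.087). Among the fits that left out 1 library, the Abcc9 call held only without mCKO replicate 3, iCKO replicate 1 or iCKO replicate 3, and that of Kcnj12 only without mCKO replicate 3, CTR1 replicate 2 or iCKO replicate 1. Kcnj2 missed the threshold (1.69 ± 0.56, adjusted p = 0.052) and passed it with the block (1.92 ± 0.45, adjusted p = 0.014, a fit that called 28.1% of genes, 14.8% in that direction), in DESeq2 and limma-voom, or without any 1 of mCKO replicate 3, iCKO replicate 1 and iCKO replicate 3, its adjusted p ranging from 0.0042 to 0.13 over 20 alternatives. Kcnj5 (-0.55 ± 0.30, adjusted p = 0.21) and Kcnj8 (0.24 ± 0.21, adjusted p = 0.43) were not called. Without both replicate 3 libraries of CTR1 and mCKO, 5 genes were called (all of the 6 but Abcc9), beside 10.8% of all genes in that direction. The models differ in the form of Cre, in tamoxifen, in the time since deletion and in the experiment, and may differ in age. These cannot be told apart in this difference.

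**Figure D4:**
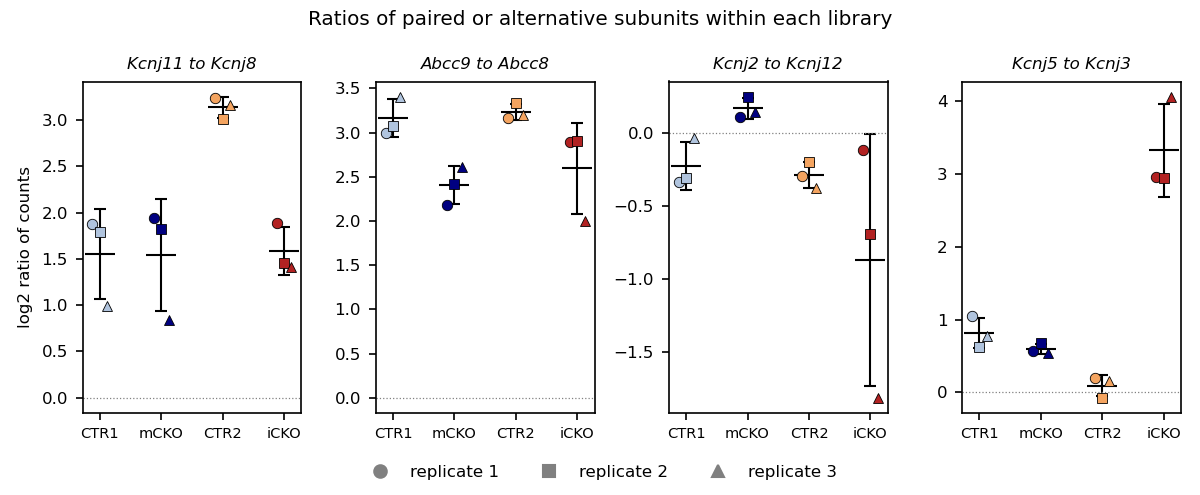
log2 ratio of counts for 4 pairs of subunits within each of the 12 libraries, with mean ± SD per group of 3 and a dotted line at equal counts. Kcnj5 to Kcnj3 stands at 2.95 to 4.06 in iCKO against -0.07 to 0.20 in CTR2, and Abcc9 to Abcc8 is lower in both knockouts than in their controls.

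Few relatives of these channels passed the filter on low counts. Of 9 other inward rectifier genes, 3 were tested in iCKO and 1 rose, where 25.2% of all genes did. This was Kcnj14, a Kir2-family pore (Kir2.4) known from neurons. It was at 0.76, 0.14 and 0.51 CPM in CTR2 and at 6.61, 5.88 and 6.30 CPM in iCKO, a tight group above all controls (3.74 ± 0.43, adjusted p = 3.5e-04). Its 0.14 CPM in CTR2 replicate 2 was 3 counts, under the filter's minimum of 10. It therefore passed the filter only through its high iCKO libraries, and its place among the genes tested is no support for the rise. In mCKO Kcnj14 was not called (0.49 ± 0.38, adjusted p = 0.45 with the block), and the models differed (-3.22 ± 0.62, adjusted p = 0.0043). Of 13 other two-pore genes, 4 were tested in iCKO and 3 rose, beside the same 25.2% of all genes. They were Kcnk13 (2.09 ± 0.42, adjusted p = 0.0046), Kcnk2 (TREK-1, a stretch-sensitive channel, 1.11 ± 0.38, adjusted p = 0.042) and Kcnk6 (0.68 ± 0.21, adjusted p = 0.029). Kcnk2 lost its call on leaving out 5 of 6 libraries (all but iCKO replicate 1, adjusted p up to 0.12, the change being 0.73 without iCKO replicate 3) and Kcnk6 on leaving out 4 (iCKO replicates 2 and 3, CTR2 replicates 1 and 3, up to 0.12). Kcnk13 ranged from 0.46 to 0.91 CPM in CTR2 and from 2.01 to 4.14 CPM in iCKO. In mCKO, Kcnk5 rose with the block (1.49 ± 0.33, adjusted p = 0.013) from a mean of 0.53 to 1.51 CPM, beside 7.32% of all genes higher. Its CTR1 libraries stood at 0.39, 0.47 and 0.74 CPM. Like Kcnj14, it passed the filter only through its higher knockout libraries, and its place among the genes tested is no support for the rise. It was not called without the block (1.48 ± 0.37, adjusted p = 0.29), and the other 4 tested were not called in either fit. The summed level of these two-pore genes lay between 8.96 and 11.7 CPM in CTR2 and between 14.8 and 21.9 CPM in iCKO.

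Genes that gate, place and supply these channels went both ways in iCKO. Among 15 receptors, G proteins and RGS proteins of the acetylcholine-gated channel, 7 rose and 3 fell in iCKO, with a list median of 0.51, beside 25.2% of all genes higher and 19.5% lower. The G protein genes Gnb1 (0.97 ± 0.13, adjusted p = 7.8e-04), Gnai3 (0.87 ± 0.16) and Gnao1 (0.82 ± 0.16) rose, and Rgs2, a protein that speeds the shut-off of G protein signals, fell (-1.67 ± 0.22, adjusted p = 6.7e-04). The receptors themselves were not called, with values of 0.19 ± 0.23 for Chrm2 (muscarinic) and 0.51 ± 0.20 for Adora1 (adenosine), named here for their role after their values were seen. In mCKO with the block 1 of 15 was called, Gnai1 (0.62 ± 0.14, adjusted p = 0.015), where 13.8% of all genes were. Without the block Gnai1 was not called (0.62 ± 0.17, adjusted p = 0.33). Between models, Rgs2 (1.72 ± 0.33), Gnb1 (-0.89 ± 0.25) and Gnb5 (0.70 ± 0.21) were called. These were 2 of 15 genes higher and 1 lower as mCKO minus iCKO, beside 11.0% and 9.88% of all 13871 genes (20.8% in all). Gnb5 was among those that fell in iCKO (-0.68 ± 0.17, adjusted p = 0.013) and stood at -0.02 ± 0.11 in mCKO. The Gnb1 call was lost without mCKO replicate 1 or 2 (adjusted p up to 0.064), and that of Gnb5 on leaving out any of 9 libraries, all but mCKO replicate 3, iCKO replicate 3 and CTR2 replicate 2 (up to 0.10).

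Of 12 scaffold and trafficking genes, 5 rose and 3 fell in iCKO, with a median of 0.44, beside the same 25.2% and 19.5% of all genes (44.8% in all). Flna, the actin crosslinker filamin A (1.31 ± 0.17, adjusted p = 6.2e-04), Cav3, the muscle caveolin (1.21 ± 0.30, adjusted p = 0.011), Copb1, a coat protein of Golgi vesicles (0.85 ± 0.14, adjusted p = 0.0018), and Ywhab, a 14-3-3 protein (0.51 ± 0.14, adjusted p = 0.016), were among those that rose. Ywhab lost its call without iCKO replicate 2, CTR2 replicate 1 or CTR2 replicate 3 (adjusted p up to 0.086). In mCKO with the block, Cav3 (-0.26 ± 0.07, adjusted p = 0.023) was among those that fell, but without the block it was not called (-0.26 ± 0.12, adjusted p = 0.59). Cav3 thus had opposite signs in the 2 models, and the difference was called (-1.45 ± 0.37, adjusted p = 0.017). Its iCKO libraries stood at 121, 118 and 257 CPM against 66.9 to 76.6 CPM in CTR2, and without iCKO replicate 3 the iCKO change was 0.70 and the difference -0.95, both still called. Flna (-1.13 ± 0.21), Copb1 (-0.71 ± 0.17) and Arcn1 (-0.48 ± 0.15) also differed between models, Arcn1 not without any of 6 libraries (mCKO replicates 1 and 3, CTR1 replicate 1, iCKO replicate 2, CTR2 replicates 1 and 3, adjusted p up to 0.10). With Cav3 they were 4 of 12, beside 9.88% of all genes in that direction.

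Of 8 genes that supply PIP2, the membrane lipid that inward rectifiers need to open, 4 rose in iCKO and none fell, with a median of 0.19, beside 44.8% of all genes called (25.2% higher). They were the lipid kinases Pip4k2a (0.72 ± 0.14, adjusted p = 0.0039), Pip5k1a (0.61 ± 0.15, adjusted p = 0.012) and Pip5k1c (0.43 ± 0.13, adjusted p = 0.023) and the phosphatidylinositol synthase Cdipt (0.70 ± 0.15, adjusted p = 0.0063). Pip5k1a lost its call without CTR2 replicate 1 (adjusted p = 0.059), and Pip5k1c without any of 4 libraries (iCKO replicates 1 and 2, CTR2 replicates 1 and 3, up to 0.10). In mCKO these genes were not called, Pip5k1c standing at 0.19 ± 0.06 (adjusted p = 0.067 with the block). Pip5k1a (-0.61 ± 0.17, adjusted p = 0.023) and Cdipt (-0.64 ± 0.20, adjusted p = 0.039) differed between models, Cdipt not without mCKO replicate 1, CTR1 replicate 3, iCKO replicate 3 or CTR2 replicate 3 (up to 0.10). They were 2 of 8, beside 9.88% of all genes in that direction.

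The fall of the channel genes in iCKO came with a change in markers of cell types. Of 10 cardiomyocyte markers 8 fell, where 19.5% of all genes did, with a median of -1.50 beside the -1.58 of the channel genes. Their summed level was 114441 to 120576 CPM in CTR2 and 40850 to 53857 CPM in iCKO, 39.5% of control. The sum is carried by its most abundant members, and single markers stood between 21.1% (Mb, myoglobin) and 108% (Actn2) of control, with Atp2a2 at 27.3% and Tnni3 at 32.3%. The 7 channel genes that fell, at 15.2% (Kcnj3) to 45.0% (Kcnj12), lay within that range but for Kcnj3. The markers did not share 1 order of libraries within iCKO. Replicate 3, the lowest library of all 9 channel genes, was the lowest of 4 of the 10 markers (Myh6, Ryr2, Ttn and Atp2a2) and the highest of the other 6, although the sum, ruled by Myh6 and Atp2a2, ran from 53857 to 43763 and 40850 CPM in replicates 1, 2 and 3. All 4 ventricular markers fell (57.3% of control) and all 7 macrophage markers rose (median 1.56), their sum going from 210 to 269 CPM in CTR2 to 538, 679 and 984 CPM in iCKO. Smooth muscle markers went both ways, 3 up and 3 down of 6, and fibroblast markers had 3 higher and 1 lower of 7. Of the endothelial markers 4 of 7 fell, and of the blood markers 5 of 5. Beside these lists, 25.2% of all genes were higher and 19.5% lower in iCKO. In mCKO the cardiomyocyte sum was 83.7% of control, 7 of 10 falling with the block, beside 6.45% of all genes lower in that fit. The macrophage sum was 150% of control, 7 of 7 rising with the block, beside 7.32% of all genes higher. The part of cell composition in the channel results was not tested.

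**Figure D5:**
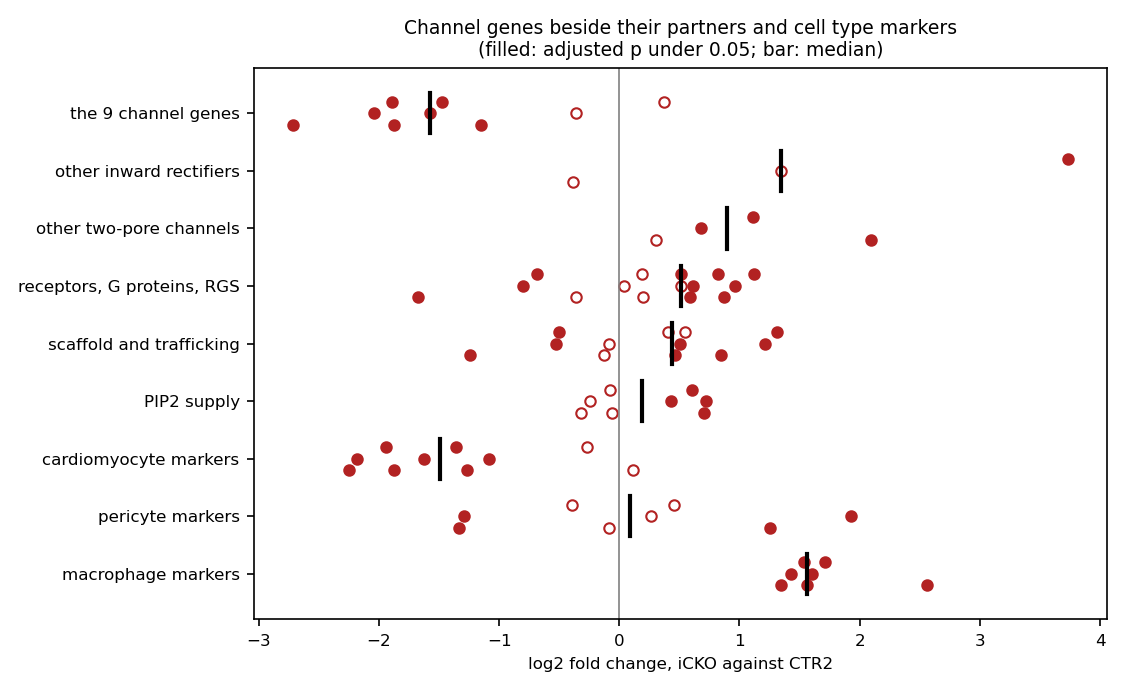
log2 fold change in iCKO against CTR2 of the 9 channel genes, of their relatives and partners, and of markers of 3 cell types, 1 circle per gene, filled where the adjusted p was under 0.05, with a bar at each list's median. The channel genes (median -1.58) and cardiomyocyte markers (-1.50) lie to the left, the macrophage markers (1.56) and several partner genes to the right.

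For each channel gene that was called, the genes with the most similar pattern were sought among 11772 genes, by the root mean squared difference between their deviations in log2 CPM from control over the 12 libraries. Kcnj11 was closest to Pfkm, muscle phosphofructokinase (difference 0.10), Pank1 (0.10) and Gpld1 (0.13). Kcnk3 was closest to Ogdh, a subunit of the oxoglutarate dehydrogenase complex, and Coq9, of coenzyme Q synthesis (both 0.13), then Tcea3 (0.16). Kcnj12 had the nearest neighbours of all, Ankrd33b (0.08), Mccc1 (0.08) and Ift172 (0.09), while Kcnj3 lay further from Txlnb (0.17), Fn3k (0.23) and Lrrc14b (0.23). Abcc9 was nearest to Acacb, Tbc1d4 and Pdpr (0.19 to 0.22), and Kcnj2 to Arhgap20, Tbc1d4 and Nceh1 (0.21 to 0.28). Tbc1d4 was thus shared by Kcnj2 and Abcc9, the 2 genes with the widest spread within iCKO on the log2 scale. Abcc8 was nearest to Tmc7, Atp8a1 and D3Ertd751e (0.19 to 0.20). The receptor gene Abcc8 and the pore gene Kcnj11 shared none of their 3 nearest genes.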

How the data were processed

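RNA was sequenced from left ventricles in 4 groups of 3 libraries, grouped by their titles, genotypes and treatments. Trizol extraction and a stranded mRNA library kit were used, per the labels' protocols. Per the submitters' processing notes, the tools were HISAT2 and DESeq and the build GRCm38, while tool versions, annotation, counting tool and strand setting were not given in those notes. Raw gene counts were deposited by the authors, 1 table for mCKO with CTR1 (17260 genes) and 1 for iCKO with CTR2 (17325 genes).

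Each table was filtered (filterByExpr, minimum count 10, minimum total 15), scaled by TMM and fitted in edgeR 4.0.16 (robust quasi-likelihood, R 4.3.3) over all its genes, with two-sided Benjamini-Hochberg adjustment and calls at 0.05. All adjusted p-values are from these fits unless DESeq2 1.42.0 or limma-voom (limma 3.58.1) is named. Values after ± are standard errors of log2 fold changes, or SD where named. The difference between models was a contrast in 1 fit of 12 libraries over the 16673 shared genes. CPM used TMM-scaled library sizes of each table, so that levels set across the tables rest on separate scalings. Lengths were merged exons of GENCODE M21. Subunit ratios used a prior count of 2 and exact permutation over libraries.

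In the mCKO experiment, libraries with the same number deviated together over all genes (r = 0.46, 0.53 and 0.82 for replicates 1, 2 and 3, each over the limit of 0.1), so the replicate block stands beside those results where it changed a call. Replicates 1 and 2 also correlated across numbers (0.55 and 0.53), and with number 3 at -0.62 to -0.68. What a number marks is not in the labels. In iCKO and CTR2 the values were 0.06, -0.09 and -0.16, and the block is an alternative only. Every pair of libraries of 1 group differed by more than sampling noise (lowest chi-square 6.25 per degree of freedom).

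The members and lists were chosen with earlier results of these data known. Genes named besides the 9 were, per list and comparison, up to 4 called genes with the smallest adjusted p, or the most abundant gene where none was called, and the 3 genes of most similar pattern, with exceptions stated where they occur. A scaffold gene that this rule names is not reported here by itself, and remains in its list's counts. For mCKO, calls of the block were used too. Alternatives were RLE size factors, library sizes only, no filter, DESeq2, limma-voom, the block, each library left out, replicate 3 of both groups left out, and 1 fit of all libraries. The fits were first tested on simulated counts.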

Additional observations from a re-analysis of the deposited data

Results flagged for a closer look

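The effects of constitutive and induced deletion on 6 channel genes differed by the test of the difference itself (edgeR, adjusted over 13871 genes). As log2 fold change in mCKO minus that in iCKO, the values were 2.76 for Kcnj3, 1.98 for Abcc8, 1.76 for Kcnj11, 1.70 for Abcc9, 1.51 for Kcnk3 and 0.94 for Kcnj12. Abcc8 had opposite signs in the 2 models, 0.36 ± 0.36 in mCKO (0.36 ± 0.06 and called with the replicate block) and -1.58 ± 0.28 in iCKO. Its mCKO value without the block was 0.09 without CTR1 replicate 3 and 0.61 without mCKO replicate 3. For Kcnj3 the mCKO value was near zero and the iCKO value the lowest of the group. Groups of 3 libraries were too small for a check of single outlying libraries.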

How the results depend on the processing

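In mCKO against CTR1, edgeR called 0 genes, and the count of genes higher and lower was 3 and 1 with no filter on low counts, 176 and 134 in DESeq2, 514 and 526 without both replicate 3 libraries, 18 and 6 in 1 fit of all 12 libraries, and 0 to 1 higher on leaving out 1 library. With the replicate block it was 978 and 861, and with the block and library sizes only (an alternative chosen after seeing the data) 1581 and 474. Members called higher and lower numbered 1 and 3 with the block, 1 and 2 with the block and library sizes only, 1 and 2 without both replicate 3 libraries, and 0 and 1 in DESeq2. The cause was not tested. Scaling by library sizes only moved the median of all genes by 0.21 in iCKO, 0.08 in mCKO and -0.17 in the difference. It gave 2145 genes lower in the difference, against 1371 in the fit reported, and the count was 904 without replicate 3 of CTR2 and iCKO (also chosen after seeing the data) and 910 to 1615 on leaving out 1 library. In iCKO against CTR2 the replicate block, whose numbers did not pair the libraries, gave 0 members higher and 7 lower, as without it, and changed the call of no member there. Over the 14 alternatives of that comparison, between 6 and 8 members were called lower.

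In mCKO against CTR1 the sign of values near 0 turned. Kcnj3 stood at 0.071 with library sizes only, 0.063 with the block added, 0.066 without both replicate 3 libraries, and -0.13 to 0.13 on leaving out 1 library. Kcnj11 ranged from -0.34 to 0.00059, Gnai2 from -0.12 to 0.36 and Pi4ka from -0.20 to 0.046 on leaving out 1 library, and Pi4ka stood at 0.0035 with library sizes only and 0.0052 with the block added. The log2 ratio of Kcnj11 to Kcnj8 ranged from -0.30 to 0.33. The summed CPM of the 9 members in CTR2 was 1819.6 with library sizes only, against 1957. Where a library holds 0 counts of a gene, 3 counts (0.11 to 0.16 CPM) stay possible from counting error alone, far below the level of every member.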

Other observations

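Between the 2 control groups, Kcnj8 stood out among the channel genes. It was measured at 75.4, 75.1 and 92.2 CPM in CTR1 and at 30.9, 34.1 and 32.9 CPM in CTR2, a ratio of mean levels of 2.48. For the other 8 genes the ratio of CTR1 to CTR2 lay between 0.73 (Kcnj3) and 1.2 (Kcnj5). All 8 pericyte markers were also higher on average in CTR1, with ratios from 1.08 (Rgs5, the most abundant) to 2.34 (Vtn), among them 1.91 for Higd1b, 1.69 for Ndufa4l2 and 1.68 for Pdgfrb. Their sum, ruled by Rgs5, was 991 to 1220 CPM in CTR1 and 843 to 920 CPM in CTR2. This was not particular to pericytes, as macrophage markers had ratios from 1.15 (Cd68) to 1.75 (Adgre1). Endothelial markers ran from 0.93 (Pecam1) to 1.66 (Emcn) and fibroblast markers from 0.98 (Pdgfra) to 1.61 (Tcf21). Smooth muscle markers ran from 0.50 (Lmod1) to 1.94 (Acta2), and cardiomyocyte markers from 0.76 (Atp2a2) to 1.25 (Ckm). The tables were scaled separately, no test was made, and the experiment and tamoxifen, with possibly age, cannot be told apart.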
